A study of Homo sapiens with 22 samples.

Results

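The Wnt feedback inhibitors AXIN2, NKD1, RNF43, ZNRF3, NOTUM and DKK1 were taken by name from a study of where DNA replication starts in DLD-1, an established human colorectal adenocarcinoma cell line. For each gene the RefSeq span on hg38 was extended by 50 kb on both sides, and every deposited region that overlapped this window by at least 1 bp was kept. The 6 windows held 50 of 29848 MTBP peaks, 82 of 62388 H3K4me2 peaks and 8 of 2473 initiation zones on chromosomes 1 to 22 and X. The 6 genes were among 19974 protein-coding genes on those chromosomes.

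MTBP is the partner of Treslin (TICRR) and acts where the replicative helicase is activated. Its sites were mapped by CUT&RUN, in which an antibody steers a nuclease to its target, here with a FLAG antibody in MTBP-mAID/MTBP-deltaC-FLAG cells (deltaC, truncated at the C terminus, 3 libraries), MTBP-mAID/MTBP-WT-FLAG cells (WT, 3 libraries) and an MTBP-mAID/MTBP-mAID control without the tag (3 libraries). CUT&RUN with an H3K4me2 antibody (2 libraries) and with IgG (2 libraries) used the WT-FLAG genotype. EdU-seq, which captures newly made DNA through the nucleotide analogue EdU (10 µM for 3 hr), was run in deltaC cells (3 libraries) and WT cells (3 libraries) that were released from a G1 arrest into S phase with hydroxyurea (HU) and aphidicolin present, drugs that hold forks near where they start. G1-arrested WT cells (3 libraries) served as its control. With HU and aphidicolin present after release, a missing zone, as at NKD1 and DKK1, does not speak to initiation later in S phase. Every line thus carried an MTBP-mAID allele, a degron-tagged copy, and the labels give neither the number of clones nor any treatment of that allele. The deposited lists hold 1 value per peak and line and no library values, so depth and replicate spread are unknown. All values are therefore descriptions without a test, and the untagged, IgG and G1-arrested levels were not analysed here.

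Wnt ligands bind Frizzled and LRP5 or LRP6 receptors, which stops a destruction complex built on AXIN and APC from degrading β-catenin. β-catenin then enters the nucleus and switches on target genes together with TCF/LEF factors that read short CTTTG-containing motifs. Several of those targets encode brakes on the pathway, and in the crypts of the colon these brakes limit signalling in stem cells. DLD-1, like most colorectal cancers, carries mutated APC. H3K4me2, dimethylated lysine on histone H3, marks promoters and enhancers.

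MTBP peaks lay in the windows of 5 of the 6 genes, all but DKK1, and 80.7% of all protein-coding gene windows held at least 1. H3K4me2 peaks lay in all 6 windows, where 91.3% of all windows had one. An initiation zone reached into 4 windows, those of AXIN2, RNF43, ZNRF3 and NOTUM, against 38.1% of all windows. In those 4 genes a zone covered the gene start itself. The share of all gene starts that lie in a zone was not computed. By density, AXIN2 stood at the top with 12.0 MTBP peaks per 100 kb, followed by NOTUM at 8.28, RNF43 at 6.06, ZNRF3 at 4.38 and NKD1 at 1.49, with DKK1 at 0. The median over all protein-coding genes was 1.64 per 100 kb. Of 19974 windows, 25 were at least as dense as that of AXIN2, 248 as that of NOTUM, 911 as that of RNF43, 2475 as that of ZNRF3 and 10672 as that of NKD1, each count including the gene's own window. The 5 Mb on both sides, gene window included, held 1.72 MTBP peaks per 100 kb at AXIN2 and 1.77 at ZNRF3. The value was 1.25 at RNF43, 0.792 at NKD1 and 0.390 at DKK1. NOTUM is left out here, because 5 Mb beyond it runs past the end of chromosome 17. The windows of AXIN2, RNF43, ZNRF3 and NKD1 were thus denser than their surroundings, and that of DKK1 was not. The share of all gene windows that are denser than their surroundings was not computed. Overlap with H3K4me2 was near complete, at 49 of 50 MTBP peaks in the windows and 98.9% of all MTBP peaks. All 50 peaks bore a WT name in the authors' list, in which 877 peaks (2.94%) bore a deltaC name.

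**Figure D1:**
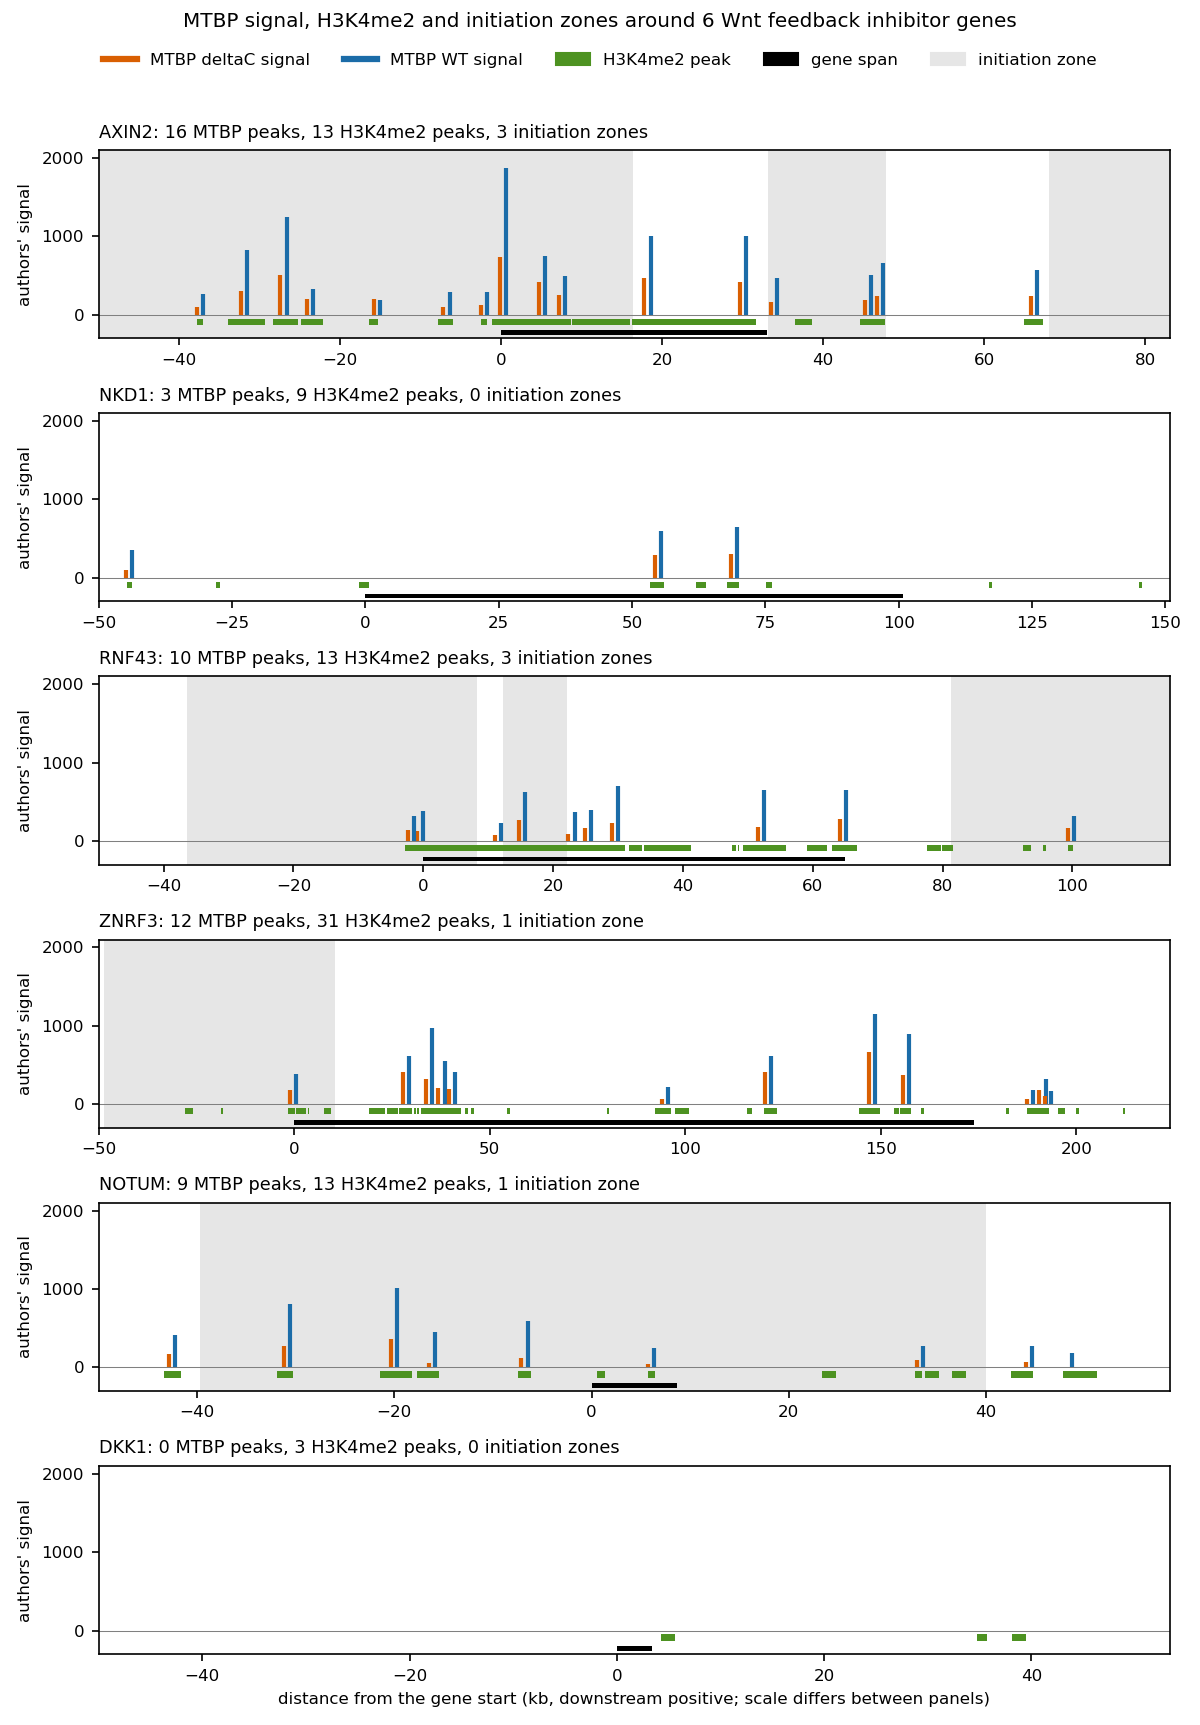
MTBP signal by position around the 6 genes, with the gene start at 0 kb and downstream positive, and the horizontal scale set for each gene. Each pair of bars is 1 MTBP peak (deltaC left, WT right, the authors' signal, drawn side by side), green blocks are H3K4me2 peaks, black bars are gene spans and grey areas are initiation zones; AXIN2 carries 16 MTBP peaks and DKK1 none.

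AXIN2, the scaffold of the destruction complex that is itself a Wnt target, lies at chr17:65528563-65561648, and its start is at the high coordinate, 65561648. No other gene of the RefSeq table overlapped its window, so none of its 16 MTBP peaks could be placed at a neighbouring gene. Of these, 5 touched the gene, 7 lay upstream and 4 downstream. The authors put 1 in the promoter class, 8 in the class of enhancers and super-enhancers and 7 in the class of others.

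The AXIN2 start was covered by the promoter peak chr17:65560345-65562466 (score 800), with a deltaC signal of 731 and a WT signal of 1873, 39.0% of WT. Its WT signal exceeded 99.8% of the list. The peak of highest score in the window lay elsewhere, at chr17:65587584-65589778 (score 888, class others), 25936 bp upstream, with signals of 511 for deltaC and 1241 for WT. Inside the gene, the peak chr17:65555473-65557598 (score 190, enhancer) had 418 for deltaC and 748 for WT, and chr17:65553047-65555136 (score 103, enhancer) had 252 for deltaC and 495 for WT. Further in, chr17:65541366-65545553 (score 190, others) had 465 for deltaC and 999 for WT, and chr17:65529765-65533502 (score 170, enhancer) had 416 for deltaC and 998 for WT. These last peaks, 4188 and 3738 bp wide, were the widest of all 50. WT exceeded deltaC at each of the 5 peaks that touched the gene.

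Downstream of AXIN2, chr17:65526927-65528502 (score 131, enhancer) ended 61 bp past the gene, with 160 for deltaC and 466 for WT, and was the 1 peak of the 50 without an H3K4me2 peak. Beyond it, chr17:65515442-65516747 (score 277, enhancer) had 183 for deltaC and 503 for WT, and chr17:65513994-65515070 (score 396, enhancer) had 232 for deltaC and 658 for WT. The farthest, chr17:65495021-65495913 (score 409, enhancer), had 241 for deltaC and 567 for WT. All 4 downstream peaks were in the enhancer class, and their deltaC signals were 34.4% to 42.5% of WT.

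Upstream, chr17:65563506-65564056 (score 233, enhancer), 1858 bp from the start, had 124 for deltaC and 289 for WT, and chr17:65567992-65568866 (score 211, others) had 94.6 for deltaC and 293 for WT. At chr17:65576776-65577407 (score 103, others) the deltaC signal was 200.1 and the WT signal 183. That peak, 15128 bp upstream, was the only one of the 50 with more deltaC than WT signal. Next came chr17:65584863-65585841 (score 170, others) with 197 for deltaC and 333 for WT, chr17:65591982-65595100 (score 255, others) with 298 for deltaC and 821 for WT, and chr17:65598682-65599536 (score 160, others) with 102 for deltaC and 267 for WT. Apart from the peak nearest the start, the upstream peaks were all in the class of others. Summed over the window, deltaC signal came to 4625 and WT signal to 10733, or 43.1% of WT.

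H3K4me2 at AXIN2 comprised 13 peaks, 11 with MTBP, of fold enrichment 6.38 to 27.3 over background. The start lay in chr17:65553027-65562762 (fold 17.8, 9736 bp wide), which also held the next 2 MTBP peaks inside the gene. The 3 of highest fold were chr17:65494336-65496651 (27.3), chr17:65514017-65517059 (22.2) and chr17:65586890-65589985 (22.1), all outside the gene and all with MTBP. H3K4me2 covered 41.1% of the window. The 2 peaks without MTBP had folds of 8.95 and 7.76.

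Zones covered 72.2% of the AXIN2 window. The zone over the start, chr17:65545266-65790019, was 245 kb long with an average peak score of 2125 and ran on into CEP112; 11 of its 30 MTBP peaks lay in the window. It ended inside AXIN2, so 49.5% of the gene was in it. A small zone of 14.6 kb, chr17:65513888-65528533 (score 175), lay directly past the 3′ end with 3 MTBP peaks. The last zone, chr17:65206341-65493602 (score 3721, 287 kb), entered the window from the side of RGS9 and had none of its 24 MTBP peaks there.

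NKD1, Naked cuticle homolog, which binds Dishevelled inside the cell, lies at chr16:50548396-50649249 and starts at the low coordinate. Its 3 MTBP peaks avoided the start: the nearest was 43948 bp away. That peak, chr16:50503824-50504448 (score 372, promoter class), lay upstream and had 100.1 for deltaC and 355 for WT. Inside the gene, chr16:50602455-50604205 (score 211, others), which also overlapped the antisense RNA NKD1-AS1, had 286 for deltaC and 598 for WT, and chr16:50616837-50618190 (score 190, others) had 301 for deltaC and 643 for WT. WT exceeded deltaC at all 3.

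H3K4me2 did mark the NKD1 start, with chr16:50547176-50549132 at fold 21.1 and no MTBP peak. Of its 9 H3K4me2 peaks, 3 had MTBP. The highest folds, 22.7 at chr16:50616143-50618470 and 22.3 at chr16:50601848-50604464, belonged to the peaks inside the gene that did carry MTBP. The start peak came next, and the remaining folds ran from 4.90 to 18.7. No zone reached the window, and the nearest, chr16:50141306-50153368 (score 106), ended 395 kb from the start.

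RNF43 and ZNRF3 are paralogous transmembrane ubiquitin ligases that remove Frizzled receptors from the cell surface. RNF43 lies at chr17:58352500-58417534 and starts at the high coordinate. Of its 10 MTBP peaks, 7 touched the gene, 2 lay upstream and 1 downstream, and the authors classed 4 as promoter and 6 as enhancer. The promoter bases before both RNF43 starts in the RefSeq table (GRCh38.p14, minus strand, 250 bases each) are shown because an MTBP peak, an H3K4me2 peak and a zone all overlapped each. Capitals would mark TCF/LEF motifs, and neither sequence held one.

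RNF43, chr17:58417535-58417784: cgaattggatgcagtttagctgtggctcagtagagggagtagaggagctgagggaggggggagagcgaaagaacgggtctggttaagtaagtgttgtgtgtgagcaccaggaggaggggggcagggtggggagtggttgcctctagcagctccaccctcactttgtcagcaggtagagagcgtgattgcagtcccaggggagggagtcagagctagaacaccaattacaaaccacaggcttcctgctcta
RNF43 internal start, chr17:58402722-58402971: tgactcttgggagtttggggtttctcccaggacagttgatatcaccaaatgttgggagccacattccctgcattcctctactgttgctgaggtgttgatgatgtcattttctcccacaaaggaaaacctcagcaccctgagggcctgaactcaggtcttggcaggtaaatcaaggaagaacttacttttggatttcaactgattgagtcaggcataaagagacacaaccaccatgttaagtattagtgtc

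The first has 56% G and C with 4 CpG dinucleotides, and the internal one 45.2% with 0, against medians of 58% and 11 over all 35116 promoters in the table. At the outer start, the peak chr17:58417562-58418396 (score 266, promoter), 28 bp upstream, had 130.4 for deltaC and 386 for WT. Its neighbour chr17:58419041-58419768 (score 150, promoter), towards HSF5, had 138 for deltaC and 322 for WT. The peak over the internal start, chr17:58400990-58403649 (score 121, promoter), had 269 for deltaC and 628 for WT. By WT signal the internal start was thus the higher of these, and by score the outer one was.

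Between and beyond these starts lay the enhancer-class peaks. The peak chr17:58405625-58406512 (score 86) had 73.6 for deltaC and 236 for WT, chr17:58394018-58395357 (score 121) had 90.8 for deltaC and 376 for WT, and chr17:58391413-58392838 (score 201) had 172 for deltaC and 394 for WT. Further in, chr17:58387110-58388935 (score 222) had 228 for deltaC and 704 for WT, and chr17:58364495-58366466 (score 170) had 176 for deltaC and 650.5 for WT. The WT signal of 704 was the highest of the RNF43 window. At the 3′ end, chr17:58352088-58353548 (score 255, promoter class), which also overlapped SUPT4H1 and the antisense RNA TSPOAP1-AS1, had 286 for deltaC and 651 for WT. The downstream peak chr17:58317371-58318092 (score 255, enhancer), in TSPOAP1, had 172 for deltaC and 322 for WT.

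A single H3K4me2 peak of 33864 bp, chr17:58386475-58420338 (fold 9.07), ran from the RNF43 start over the 5′ part of the gene and held 7 of the 10 MTBP peaks. It was the widest H3K4me2 peak of the 6 windows and not among the highest in fold. Those were chr17:58350779-58354625 (35.7), chr17:58317380-58318274 (23.9) and chr17:58361665-58368331 (22.2), each with 1 MTBP peak. In all, 4 of 13 H3K4me2 peaks carried MTBP, and the 9 without had folds of 4.64 to 18.7.

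Zones covered 53.4% of the RNF43 window. The start lay in chr17:58409249-58453864 (score 823, 44.6 kb), shared with HSF5, with 2 MTBP peaks. The internal start lay in another zone of 9.93 kb, chr17:58395314-58405246, whose score of 80.2 exceeded only 2.47% of all zones and which held 2 MTBP peaks. The downstream zone chr17:58300638-58336150 (score 372), over TSPOAP1, held 1.

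ZNRF3 lies at chr22:28883572-29057488 and starts at the low coordinate. Of its 12 MTBP peaks, 9 touched the gene, none lay upstream and 3 lay downstream, with 5 in the promoter class, 5 in the enhancer class and 2 among others. The start was covered by chr22:28882633-28883677 (score 160, promoter), with 181 for deltaC and 389 for WT. The peak chr22:28916745-28919347 (score 312, promoter), 33173 bp inside the gene, was higher, with 324 for deltaC and 977 for WT. The authors' distances place a start site within it, at 28917389. Around it stood enhancer peaks, chr22:28911451-28912650 (score 421) with 415 for deltaC and 620 for WT, chr22:28920605-28921832 (score 300) with 207 for deltaC and 553 for WT, and chr22:28923316-28924560 (score 131) with 193 for deltaC and 416 for WT.

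Towards the 3′ end of ZNRF3, the peak chr22:29030227-29032343 (score 591, promoter class) had the highest signals of the window, 669 for deltaC and 1152 for WT. It overlapped the start of the antisense RNA ZNRF3-AS1, whose promoter (RefSeq, GRCh38.p14, minus strand) is shown because it lies under this peak. No TCF/LEF motif, which would be in capitals, was in it.

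ZNRF3-AS1, chr22:29031477-29031726: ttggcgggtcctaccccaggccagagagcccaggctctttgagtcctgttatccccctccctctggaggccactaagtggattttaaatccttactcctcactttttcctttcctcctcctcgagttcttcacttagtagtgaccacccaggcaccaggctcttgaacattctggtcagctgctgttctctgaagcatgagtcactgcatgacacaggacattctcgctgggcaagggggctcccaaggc

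That promoter has 54.4% G and C and 3 CpG dinucleotides. Other peaks inside ZNRF3 were chr22:29038921-29041121 (score 211, others) with 375 for deltaC and 898 for WT, chr22:29003696-29005581 (score 266, enhancer) with 405 for deltaC and 611 for WT, and chr22:28977729-28978994 (score 86, enhancer) with 66.5 for deltaC and 226 for WT. The last of these lay in the H3K4me2 peak of highest fold in the 6 windows, 49.5 at chr22:28975944-28979934, although its own MTBP score exceeded only 4.69% of the list. Downstream, chr22:29071439-29072069 (score 54, promoter), in C22orf31, had 64.9 for deltaC and 178 for WT, and chr22:29074282-29075533 (score 180, promoter) had 183 for deltaC and 324 for WT. The farthest, chr22:29075961-29076505 (score 131, others), had 99.2 for deltaC and 174 for WT. Both of the farther peaks lay in KREMEN1, a receptor for DKK proteins.

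ZNRF3 had the most H3K4me2 peaks of the 6 genes, 31, and 9 of them carried MTBP. After the peak of fold 49.5, the highest were chr22:29003699-29007098 (43.2) and chr22:29028036-29033230 (36.5), both with MTBP. At the start the mark was in 2 pieces: chr22:28881949-28883793 (fold 24.1) covered the start and had MTBP, and chr22:28883987-28886648 (fold 31.5), 415 bp inside, had none. That fold of 31.5 was the highest fold of any H3K4me2 peak without MTBP in the 6 windows. The other 21 without MTBP ranged from 3.63 to 17.5. The start lay in zone chr22:28834819-28894107 (score 1124, 59.3 kb), which held 7 H3K4me2 peaks and 1 MTBP peak. The other 11 MTBP peaks of ZNRF3 lay outside any zone.

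NOTUM and DKK1 act outside the cell. NOTUM, a secreted enzyme that inactivates Wnt ligands by removing their lipid, lies at chr17:81952507-81961187 and starts at the high coordinate. Its window is crowded, with PCYT2, NPB, SIRT7, MAFG, PYCR1, MYADML2 and ASPSCR1 also in it. Of 9 MTBP peaks, 1 touched NOTUM, chr17:81954747-81955508 (score 150, others), 5679 bp from the start, with 47.0 for deltaC and 243 for WT. No MTBP peak covered the start. The remaining peaks lay 6149 bp or more away, at or near neighbouring genes.

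Upstream, chr17:81967336-81968624 (score 300, promoter) had 117 for deltaC and 597 for WT. The peak at the low end of ASPSCR1, chr17:81976457-81978336 (score 180, promoter), had 50.8 for deltaC and 447 for WT, or 11.4% of WT. This was the lowest share above 0 among the 50 peaks. Within ASPSCR1, chr17:81979916-81982621 (score 348, others) had 357 for deltaC and 1007 for WT, chr17:81991141-81993031 (score 372, enhancer) had 269.7 for deltaC and 808 for WT, and chr17:82003146-82004336 (score 201, enhancer) had 172 for deltaC and 408 for WT. Downstream, chr17:81927692-81928103 (score 160, promoter), in MAFG, had 96.1 for deltaC and 270 for WT. In SIRT7, chr17:81916449-81917152 (score 112, promoter) had 67.2 for deltaC and 267 for WT, and chr17:81912300-81913220 (score 170, promoter) was listed at 0 for deltaC and had 184 for WT. WT exceeded deltaC at all 9, and the summed deltaC signal, 1176, was 27.8% of the summed WT signal, 4231.

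H3K4me2 near the NOTUM start was weak, with chr17:81959769-81960583 at fold 5.75, 604 bp inside the gene and without MTBP. It was the lowest of 13 H3K4me2 peaks, 9 of which carried MTBP. The highest, chr17:81916380-81918673 (28.9), chr17:81927675-81928383 (26.7) and chr17:81976666-81978869 (26.0), lay in or at SIRT7, MAFG and ASPSCR1. The whole of NOTUM lay in zone chr17:81921133-82000927, of score 4345, which exceeded 98.7% of all zones. That zone spanned 79.8 kb and 5 protein-coding genes, and held 6 MTBP peaks.

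DKK1, a secreted antagonist that binds LRP5 and LRP6, lies at chr10:52314281-52317657 and starts at the low coordinate. Its window held no MTBP peak, and the nearest, chr10:52443250-52444299 (score 348), began 129 kb from the start. Its 3 H3K4me2 peaks all lay downstream, chr10:52318537-52319860 (fold 6.07), chr10:52349012-52349974 (7.35) and chr10:52352392-52353808 (8.12), with the nearest 4256 bp from the start. All 3 were below the list's median fold of 14.4. The nearest zone, chr10:47403317-47417522, lay 4897 kb away. The DKK1 promoter (RefSeq, GRCh38.p14, plus strand) is shown with its TCF/LEF motifs in capitals, as the promoter without MTBP or H3K4me2 to set beside those of RNF43.

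DKK1, chr10:52314031-52314280: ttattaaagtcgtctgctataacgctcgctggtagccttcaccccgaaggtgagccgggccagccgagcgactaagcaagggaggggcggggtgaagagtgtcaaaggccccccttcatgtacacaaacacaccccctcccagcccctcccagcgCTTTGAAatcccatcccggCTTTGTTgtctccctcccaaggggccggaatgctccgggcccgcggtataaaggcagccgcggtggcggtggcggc

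The letters CTTTGAT, which TCF/LEF factors read, were searched together with the variant CTTTGTT, the variant CTTTGAA and the variant CTTTGTA on both strands from 250 bases before to 50 bases after each start. On 1 strand no position can match more than 1 of them. Only RNF43 and DKK1, 2 of the 6 members, had a promoter in the table. The promoters of AXIN2, NKD1, ZNRF3 and NOTUM were not in it and were not searched. DKK1 had 2 matches, CTTTGAA at -95 and CTTTGTT at -76 from the start, and both RNF43 promoters and that of ZNRF3-AS1 had 0. Over the table, 13.8% of 35116 promoters held at least 1 match and 1.58% at least 2. The DKK1 promoter, which had no MTBP or H3K4me2 peak, had 62.8% G and C and 18 CpG dinucleotides. With 2 members searched, no relation between motif and peaks can be read from these matches. These matches are letters in a window and not measured binding sites.

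Across the 50 peaks, deltaC signal was mostly well below WT signal. On the scale of log2((deltaC + 1)/(WT + 1)), the median was -1.32 (quartiles -1.59 and -1.10), against -0.93 (quartiles -1.32 and -0.59) over all MTBP peaks. A value of -1 or lower was found at 40 of 50 peaks (80%), against 44.9% of the whole list. A value of 1 or higher was found at 0, against 0.419% of the list, and 1 peak was above 0, against 4.52%. Median deltaC signals were 188 in the windows and 201 over the list, and median WT signals were 481 and 371. The WT signal in the windows was thus above that of the list, and the deltaC signal was not. All 50 peaks bore a WT name, as did 28971 of the 29848 in the list. If the name means that a peak was called in WT, the choice favours WT over deltaC signal. This was not tested, and the scaling of the signals is unstated.

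Per gene, the median log2 ratio was -1.98 at NOTUM, -1.39 at RNF43, -1.27 at AXIN2, -1.10 at ZNRF3 and -1.09 at NKD1. Counts at -1 or lower were 9 of 9 at NOTUM, 9 of 10 at RNF43, 12 of 16 at AXIN2, 7 of 12 at ZNRF3 and 3 of 3 at NKD1. The other MTBP peaks within 5 Mb followed much of this order, with medians of -1.66 (223 peaks) around NOTUM, -1.11 (157) around AXIN2, -1.03 (168) around ZNRF3, -1.02 (116) around RNF43 and -0.72 (77) around NKD1. The gene's median minus that of its surroundings was -0.37 at NKD1, -0.36 at RNF43, -0.32 at NOTUM, -0.16 at AXIN2 and -0.07 at ZNRF3. Of the 50 peaks, 35 were below their own local median. The same count for other gene windows was not computed, and peaks of the same window are neighbours rather than independent values. The ranges of NOTUM and the other genes overlapped. Chromosome 17, which carries AXIN2, RNF43 and NOTUM, had the lowest chromosome median of 23, -1.22. The 35 peaks on it had a median of -1.45, and the 15 on the other chromosomes -1.10. Chromosome 22, which carries ZNRF3, had a median of -1.11 (rank 3 from the lowest). Chromosome 16, which carries NKD1, had -1.05 (rank 5). The ZNRF3 and NKD1 medians were thus close to those of their chromosomes. The part of chromosome position in these medians was not tested.

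**Figure D2:**
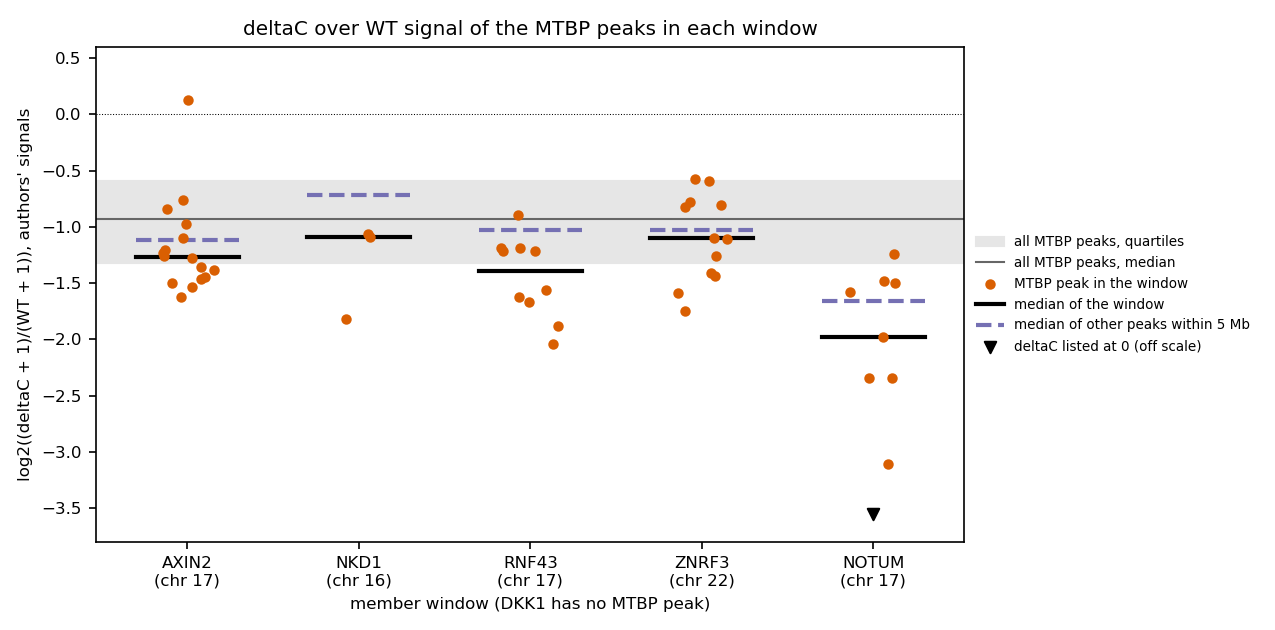
Each point is 1 MTBP peak and shows log2((deltaC + 1)/(WT + 1)) of the authors' signals by gene; black bars are gene medians and dashed bars the medians of the other MTBP peaks within 5 Mb. The grey band and line give the quartiles and median of all MTBP peaks (-1.32, -0.93 and -0.59), the triangle is the NOTUM-window peak listed at 0 for deltaC, and all gene medians lie below the list median.

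By class, median log2 ratios were -1.46 for the 16 promoter peaks in the windows, -1.26 for the 21 enhancer peaks and -1.26 for the 13 others, against -0.97, -0.97 and -0.88 over all MTBP peaks of those classes. Every class was therefore lower in the windows than in the list. The enhancer class made up 42% of peaks in the windows and 17.6% of the list, the promoter class 32% and 34.7%, and others 26% and 47.7%. Peaks in the windows were also wider, with a median of 1278 bp against 938 bp, while the median score was 196 against 190.

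Of the 50 peaks, 26 (52%) overlapped an initiation zone, against 23.0% of all MTBP peaks. AXIN2 supplied 14 of the 26, and without it the share was 35.3%. NOTUM supplied 6, RNF43 5, ZNRF3 1 and NKD1 0. The median log2 ratio was -1.42 for the 26 in zones and -1.25 for the 24 outside, and over the whole list -1.14 in zones and -0.87 outside. Of the 82 H3K4me2 peaks, 34 (41.5%) overlapped a zone, against 17.6% of the list. The zone scores spanned 80.2 to 4345, around the list's median of 628, so the 8 zones ranged from near the bottom to near the top of the list.

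MTBP overlapped 36 of the 82 H3K4me2 peaks (43.9%), close to the 43.6% of the whole list. The 36 with MTBP had a median fold of 21.7 (6.38 to 49.5) and the 46 without 8.74 (3.63 to 31.5). Over all H3K4me2 peaks these medians were 23.0 and 9.35. Median widths were 2790 bp with MTBP and 1178 bp without, and 2189 and 973 bp over the list. Pooled over the windows, as over the list, peaks with MTBP were thus wider and of higher fold, but not every gene followed. At NOTUM the median fold was 13.6 for the 9 peaks with MTBP and 16.1 for the 4 without. At AXIN2 the median width was 2650 bp for the 11 with MTBP and 4690 bp for the 2 without, and DKK1 had no peak with MTBP. Exceptions ran both ways: 13 peaks with MTBP were below the list's median fold and 10 without were above it. Among those 10 were the peak at the NKD1 start and a peak 415 bp inside ZNRF3, whose start lay in another peak that had MTBP.

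**Figure D3:**
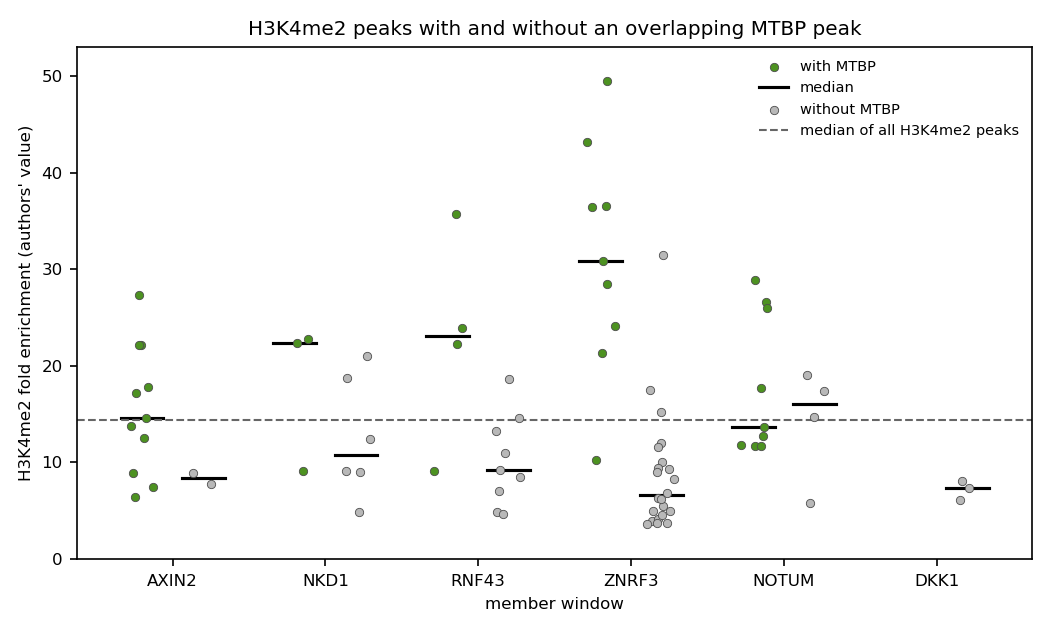
Fold enrichment of every H3K4me2 peak in the 6 windows (the authors' value), with an overlapping MTBP peak on the left (green) and without on the right (grey) for each gene; bars are medians and the dashed line is the median of all H3K4me2 peaks (14.4). Peaks with MTBP reach 49.5 at ZNRF3, and the 3 DKK1 peaks, all without MTBP, lie between 6.07 and 8.12.

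Windows of the same kind were drawn around 79 other genes of the pathway, some of which overlap those above (KREMEN1 lies beside ZNRF3). The windows of the 6 feedback inhibitors had a median of 5.22 MTBP peaks per 100 kb. Such densities include flanks and neighbouring genes, and 24 of the 50 peaks in the inhibitor windows touched the inhibitor genes. The other secreted, surface and intracellular antagonists, such as SFRP and DACT genes, had a median of 1.87, with MTBP in 16 of 20 windows and zones in 11. KREMEN2 was their densest, at 3.84 per 100 kb, and DACT1 was among the 4 with 0. Receptors and R-spondins had 0.968, with MTBP in 16 of 19 windows and zones in 5, from LGR4 (4.35) to FZD9, 1 of 3 with 0. Destruction complex genes and Dishevelled genes had 2.57, with MTBP in 12 of 12 windows and zones in 7, from DVL2 (8.24) to TNKS (0.306).

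Nuclear effectors, the TCF/LEF factors and their partners, had 2.17, with MTBP in 8 of 9 windows and zones in 4, from PYGO2 (6.68) to PYGO1 (0). Wnt ligands had 2.15, with MTBP in 17 of 19 windows and zones in 9, from WNT16 (6.05) to WNT2, 1 of 2 with 0. All 5 comparison lists had medians between 0.968 and 2.57, near the 1.64 of all genes, and no gene in them reached AXIN2's 12.0. H3K4me2 density was also highest for the feedback inhibitors, with a median of 8.82 peaks per 100 kb. The median was 4.56 for other antagonists, 2.93 for receptors and 4.51 for the destruction complex list. It was 4.33 for nuclear effectors, 4.35 for ligands and 3.49 for all genes. The 5 comparison lists did not keep the same order in MTBP and H3K4me2 density. The part of H3K4me2 density in the MTBP density was not tested. Counted at gene ends rather than in windows, an MTBP peak lay within 1 kb of an end of 3 of the 6 inhibitors, AXIN2, RNF43 and ZNRF3, against 42.8% of all protein-coding genes. The same count was 5 of 20 for other antagonists, 10 of 19 for receptors, 10 of 12 for the destruction complex list, 5 of 9 for nuclear effectors and 4 of 19 for ligands. With respect to gene ends the inhibitors were thus not the highest list.

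**Figure D4:**
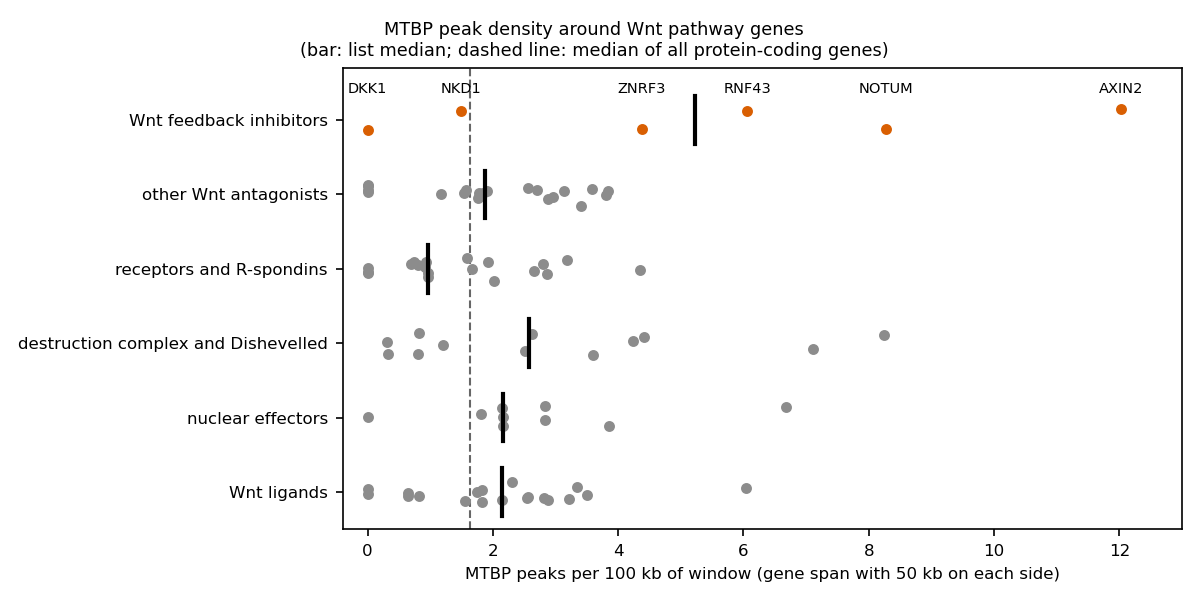
MTBP peaks per 100 kb in the window of each Wnt pathway gene, 1 point per gene, by list; black bars are list medians and the dashed line is the median of all protein-coding genes (1.64). The feedback inhibitors in the top row run from 0 (DKK1) to 12.0 (AXIN2), and the highest point in any other list is DVL2 at 8.24.

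As a check of cell type, H3K4me2 lay within 1 kb of an end of 10 of 12 colorectal epithelium markers, including CDX2 and EPCAM, and was missing at CDH17 and GPA33. It was at 1 of 5 hepatocyte markers, 2 of 5 blood markers, 2 of 5 fibroblast markers and 0 of 5 muscle markers, but also at 5 of 5 neuronal markers. Over all protein-coding genes it lay within 1 kb of an end of 12848 of 19974. The mark was thus found at most colorectal markers, as at most protein-coding genes, and was not limited to them.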

How the data were processed

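The authors deposited 3 lists on build hg38, the MTBP peaks, the H3K4me2 peaks and the initiation zones. Trim Galore, Bowtie2, MACS2 and HOMER are named in the submitters' processing notes, with versions, parameters, pooling and control libraries not given in the sources used here. In the deposited MTBP list, per the file headers, each peak has a score, a signal for WT, a signal for deltaC, a class and a distance to a start site. The scaling of score and signal is unstated, and the deposited zone list gives an average peak score per zone. Which EdU-seq libraries gave the zones is unstated. The deposited H3K4me2 list has the narrowPeak layout, with a score and a fold enrichment ratio per peak.

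Gene spans came from RefSeq (GRCh38.p14), and overlap meant at least 1 bp. MTBP and zone coordinates were used as deposited (their base convention is unstated, so they may be off by 1 bp). H3K4me2 starts were shifted to count from 1. Chromosome Y was left out. Log ratios used a pseudocount of 1. The gene table gives no strand, so the end at which each of the 6 genes starts was taken from the authors' distances and annotations or the RefSeq promoter table, and checks of markers and pathway genes used either gene end instead of the planned gene start. The member genes and the gene lists were chosen with earlier results of these data known. Every MTBP peak and zone in a window is named, as are H3K4me2 peaks at starts and the 3 of highest fold per gene, and the densest and sparsest gene of each pathway list. No test was possible on 1 value per line and peak. Overlap code was tested on simulated data. Planned comparisons of protein sequences were not run. Computations used Python 3.11.15, NumPy 2.4.6 and pandas 2.3.3, and figures matplotlib 3.10.9. Alternatives changed the window, the pseudocount, the score and overlap minimum, the scaling of the ratio and the member genes included.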

Additional observations from a re-analysis of the deposited data

How the results depend on the processing

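Counts followed the window. MTBP peaks numbered 24 in gene spans alone, 30 with 10 kb on each side, and 28 at or above the median score, against 50. H3K4me2 peaks numbered 41, 47 and 38, against 82, and 51 to 79 with 1 gene left out, lowest without ZNRF3. With 100 kb on each side, MTBP peaks rose to 75 and H3K4me2 peaks to 119. The median log2 ratio of -1.32 became -0.38 after subtracting the median of all MTBP peaks and -0.21 after subtracting each gene's local median within 5 Mb. It lay between -1.42 and -1.10 under the other settings, including 1 chosen after seeing the data (peaks in or within 10 kb of a gene, -1.24). The share of H3K4me2 peaks with MTBP was 73.7% for those at or above the median score and 29.3% with MTBP peaks at or above the median score, against 43.9%. The share of MTBP peaks in a zone was 68% with zones widened by 10 kb and 35.3% to 65.8% with 1 gene left out, lowest without AXIN2, against 52%. The number of genes with a zone was 4 in all settings, and 3 to 4 with 1 gene left out. No paired analysis was possible because the lists hold no library values. Depth is unknown, and how far a missing peak reflects depth was not tested.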
